A study of Mus musculus with 2 samples.

Results

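The miR-99 family (miR-99a, miR-99b and miR-100) and the miR-125 family (miR-125a and miR-125b) are encoded by 6 of the 2202 miRNA genes annotated in the mouse genome, and all 6 had reads in the left cerebral cortex. Members were taken by gene name from the GENCODE M21 annotation, by a rule that uses no count, although the families were picked with earlier results of these data known: Mir99a, Mir99b and Mir100 for the first family, and Mir125a, Mir125b-1 and Mir125b-2 for the second. RNA fragments under 30 nucleotides came from male mice of the strain B6CASTF1/J, aged 2 months, which are first-generation hybrids of C57BL/6J and CAST/EiJ from The Jackson Laboratory. There was 1 group of 2 animals with 1 library each, male 3 (library 1) and male 4 (library 2), so no condition was compared. The labels give both samples a single donor identifier and tell them apart only by animal and replicate number, so any difference between the libraries may be technical. Library 1 held 3827158 and library 2 held 4553291 reads on the sense strand of a miRNA gene, and values below are counts per 1000000 such reads (CPM). One read was worth 0.261 CPM in library 1 and 0.220 CPM in library 2.

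MiRNAs are short RNAs cut from hairpin precursors. The mature strand guides an Argonaute protein to messenger RNAs, mainly by pairing through its seed, bases 2 to 8. The miR-125 family is the mammalian counterpart of lin-4, the first miRNA found in the worm, and represses Lin28, a block to let-7 maturation. In neurons miR-125a is known for control of the synaptic scaffold PSD-95 and miR-125b for effects on dendritic spines. The miR-99 family is known for repression of the growth kinase mTOR and of the chromatin remodeller Smarca5. Genes of both families and a let-7 gene lie together in paralogous clusters in the mouse.

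The families are told apart by their seeds, and the members of a family by the bases after it. The arms from the 5′ side of the hairpins are shown first, because they define the families and because the spacing of their differences decides which gene a read can be given to. Sequences are from RefSeq (GRCm38.p6), written 5′ to 3′, with the seed in capitals.
miR-99a-5p: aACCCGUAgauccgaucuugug
miR-100-5p: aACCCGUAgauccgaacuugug
miR-99b-5p: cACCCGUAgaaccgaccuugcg
miR-125a-5p: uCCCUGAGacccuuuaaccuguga
miR-125b-5p: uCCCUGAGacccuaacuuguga
The table gave a mature sequence for all 6 genes, with 11 distinct sequences over both arms. Counted from the 5′ end, miR-100-5p and miR-99a-5p differed at a single position (A16U, with the base of miR-100-5p first). Set against miR-99a-5p, miR-99b-5p differed at 4 of 22 positions (A1C, U11A, U16C and U21C), all outside the seed. The 24-base miR-125a-5p and the 22-base miR-125b-5p shared their first 13 bases and then diverged, at an edit distance of 3.

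Mir125b-1 and Mir125b-2 give the same 5′ arm, and their hairpins shared an unbroken run of 24 bases that holds it. A read of the exact miR-125b-5p sequence therefore matches both loci. The arms from the 3′ side separate the copies, differing at 5 of 22 positions, and are shown for that reason, again with bases 2 to 8 in capitals.
miR-125b-1-3p: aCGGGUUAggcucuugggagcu
miR-125b-2-3p: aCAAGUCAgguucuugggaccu
Every stretch of 22 bases in the 6 hairpins was looked up in all annotated transcripts of other loci. None of the 44 stretches of Mir99a, 49 of Mir99b, 59 of Mir100 or 47 of Mir125a was found elsewhere. For the miR-125b pair, 3 of 56 stretches of Mir125b-1 and 3 of 50 of Mir125b-2 were found elsewhere, including each time in the other copy's hairpin. The layout of the deposited counts gives a read that maps to several places to no gene. Such reads made up 41.7% of library 1 and 41.1% of library 2, and how many of them were miR-125b-5p was not measured. The counts of Mir125b-1 and Mir125b-2 are therefore partial, and a low value there cannot be read as little miR-125b.

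Each cluster lies on the plus strand and runs from the miR-99 gene through a let-7 gene to the miR-125 gene (mm10 coordinates). Mir99a (ENSMUSG00000065530.1; chromosome 16, 77598936 to 77599000) and Mir125b-2 (ENSMUSG00000065472.1; 77646273 to 77646343) lie in introns of the non-coding host Mir99ahg. Mir100 (ENSMUSG00000093011.1; chromosome 9, 41531425 to 41531504) and Mir125b-1 (ENSMUSG00000093354.1; 41581926 to 41582002) lie in introns of the processed transcript 3110039I08Rik. Mir99b (ENSMUSG00000065396.1; chromosome 17, 17830188 to 17830257) lies in an intron of Spaca6, a sperm protein gene. Mir125a (ENSMUSG00000065479.2; 17830812 to 17830879) also lies within Spaca6, where 1 of the 3 transcripts that span it overlaps it with an exon. Exons of further annotated genes overlap Mir125b-2 (C130023A14Rik, same strand), Mir125b-1 (Gm28119, same strand) and Mir100 (Gm48742, opposite strand). The chromosome 17 cluster spans only 692 bases, against 47408 on chromosome 16 and 50578 on chromosome 9. In the wider clusters the distance falls between the let-7 gene and the miR-125 gene, with 46522 and 45114 bases between the hairpins.

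**Figure D1:**
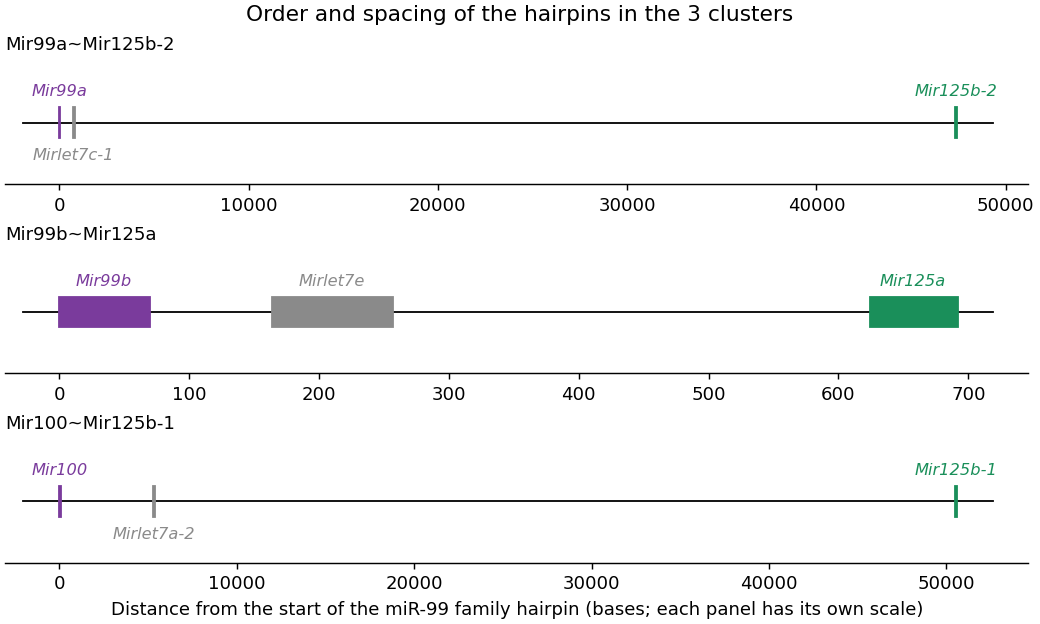
Position of each hairpin in the 3 clusters, in bases from the start of the miR-99 hairpin, with boxes drawn to each panel's own scale. The chromosome 17 cluster (middle) covers 692 bases, while in the others 46522 and 45114 bases separate the let-7 and miR-125 hairpins.

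Together the 6 genes took up 3.42% of counted reads in library 1 (95% Wilson interval 3.40 to 3.43%) and 3.33% in library 2 (3.32 to 3.35%). The labels name no molecular identifiers, so reads were not taken as independent molecules, and intervals cover counting error only. Each of the 6 reached the detection minimum of 10 reads in library 1 and in library 2, as did 406 of the 2202 annotated genes. The sum was close in the libraries, at 1.02-fold, but the families that make it up were not. The miR-99 family made up 1.44% of library 1 and 2.28% of library 2, with a mean of 1.86% ± 0.593 (SD, n = 2). The miR-125 family made up 1.98% of library 1 and 1.06% of library 2, with a mean of 1.52% ± 0.650 (SD, n = 2). Among uniquely placed reads the miR-125 family thus led in library 1 and the miR-99 family in library 2. The miR-125 share leaves out every miR-125b-5p read that matched both copies, so the order of the families over all reads was not measured.

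Among the members Mir125a, the gene of the synaptic regulator miR-125a, had the highest mean. Its level was 18491 CPM in library 1 (70768 reads) and 9319 CPM in library 2 (42434 reads), a mean of 13905 ± 6485 CPM (SD, n = 2). It ranked 11 among all miRNA genes in library 1 and 21 in library 2, and its mean lay between those of Mir652 (14457 CPM) and Mir328 (13315 CPM). Ranks here and below are by uniquely placed reads. Genes whose mature sequence is shared with other loci may rank too low, so the ranks do not order mature miRNAs by abundance. Mir125a supplied nearly all counted miR-125 reads, 93.5% in library 1 and 88.0% in library 2.

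Mir99a, the leading gene of the mTOR-repressing family, reached 9147 CPM in library 1 (35007 reads) and 11558 CPM in library 2 (52625 reads), a mean of 10352 ± 1705 CPM (SD, n = 2). The library values of Mir125a and Mir99a overlapped, so their order was not larger than the spread. Mir99a supplied 63.7% of the counted miR-99 reads in library 1 and 50.8% in library 2, and its rank among all genes was 23 and 19.

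Mir99b followed at 2493 CPM in library 1 (9542 reads) and 7770 CPM in library 2 (35381 reads), a mean of 5132 ± 3732 CPM (SD, n = 2). This was the least even member, ranking 59 in library 1 and 28 in library 2. Mir100, whose mature 5′ arm is a single base away from that of Mir99a, stood at 2727 CPM (10435 reads) and 3423 CPM (15586 reads), a mean of 3075 ± 492 CPM (SD, n = 2). Its values lay inside the range of Mir99b, so these neighbours in the order were not separated, and in library 1 Mir100 was the higher of the pair. Mir99a lay above both in each library.

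The miR-125b copies were the lowest members. Mir125b-1 had 948 CPM in library 1 (3627 reads) and 1036 CPM in library 2 (4718 reads), a mean of 992 ± 62.6 CPM (SD, n = 2). Mir125b-2 had 345 CPM (1321 reads) and 233 CPM (1060 reads), a mean of 289 ± 79.5 CPM (SD, n = 2). Neither range overlapped its neighbour in the order, but both counts carry the limit of the shared 5′ arm given above. The means of the 6 members spanned 48.1-fold. A read covers a whole mature strand, so counts were not divided by length, and dividing by hairpin length (65 to 80 bases) left the order of the means as it was.

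**Figure D2:**
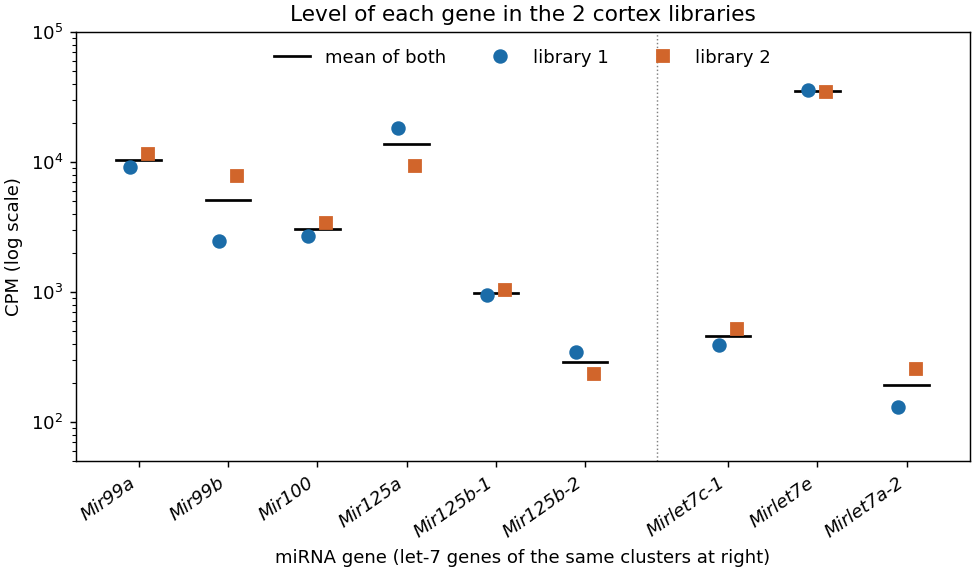
Level of the 6 members and of the 3 let-7 genes of their clusters in each library, in CPM on a log scale, with circles for library 1, squares for library 2 and bars at the mean of both. Mir99b (2493 and 7770 CPM) and Mir125a (18491 and 9319 CPM) are the members whose libraries lie farthest apart, in opposite directions.

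All 6 members differed between the libraries by the exact binomial test (two-sided, Benjamini-Hochberg adjusted over 508 genes, threshold 0.05). Library 1 was the higher at 2 members and library 2 at 4. That test allows for counting error alone, compares libraries and not conditions, and called 48.4% of all genes tested, 25.2% as higher in library 1 and 23.2% as higher in library 2. It calls small differences where reads are many: 86.3% of the 168 tested genes with a mean of at least 200 CPM passed, and 92.4% of the 92 with at least 1000 CPM. A count of 6 of 6 is therefore near what genes this abundant gave in these libraries. The median difference was 1.37-fold in either direction over the members and 1.33-fold over the 507 tested genes with reads in both libraries. Over detected genes of at least 200 CPM it was 1.23-fold, and over those of at least 1000 CPM 1.24-fold.

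Mir99b had the largest difference of the members, 3.12-fold higher in library 2 (log2 ratio -1.64, with library 1 in the numerator here and below, and an exact 95% interval of -1.67 to -1.61). Of the 92 detected genes with a mean of at least 1000 CPM, none had a lower log2 ratio, and the next were Mir23a at -0.82, Mir107 at -0.67 and the endothelial Mir126a at -0.55. Its nearest gene in this measure was thus 0.82 log2 units away over the 2 libraries, and 4 of the 92 genes had a larger ratio in absolute size, all higher in library 1. This distance depends on the level required. Among less abundant genes, looked up after their values were seen, Mir185 (mean 950 CPM, log2 ratio -3.11), Mir451a (738 CPM, -4.61), Mir144 (60.3 CPM, -1.97) and Mir1949 (5.81 CPM, -1.78) were lower, and Mir592 (-1.62) and Mir505 (-1.53) were close. Mir125a moved the other way and was 1.98-fold higher in library 1 (log2 ratio 0.99, interval 0.97 to 1.01). Among the same 92 genes, 7 had a higher log2 ratio, and the nearest values were those of Mir674 (1.03), Mir27b (1.07) and Mir455 (0.88). For both genes the adjusted binomial p was too small for the software to represent.

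The other members differed less. Mir99a was 1.26-fold higher in library 2 (log2 ratio -0.34, interval -0.36 to -0.32) and Mir100 1.26-fold higher (-0.33, -0.36 to -0.29). Mir100 was the gene nearest to Mir99a in log2 ratio of the 91 others with at least 1000 CPM, followed by Mirlet7g (-0.35) and Mir181d (-0.32). Mir181d was in turn the nearest to Mir100. Mir125b-1 was 1.09-fold higher in library 2 (log2 ratio -0.13, interval -0.19 to -0.07; adjusted binomial p = 0.000152 by the exact test), with Mir143 (-0.12), Mir23b (-0.12) and Mir485 (-0.14) nearest. Mir125b-2 was 1.48-fold higher in library 1 (0.57, 0.45 to 0.69; adjusted p = 5.31e-21 by the exact binomial test), with Mir222 (0.57), Mir139 (0.55) and Mir29a (0.53) nearest.

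An exact test in edgeR that adds the spread between these libraries, estimated as a dispersion common to all genes, called 0 of the 6 members and 0.787% of all genes tested (4 of 508). The coefficient of variation behind it was 33.3%. This spread was estimated from the same 2 libraries that the test then compared, so the differences tested are part of it. The low number of edgeR calls is therefore no independent check. Adjusted p-values of the members ran from 0.640 for Mir99b to 1 under this edgeR test, and only Mir99b had an unadjusted p under 0.05 (edgeR exact test, p = 0.0214), where 25 of the 508 genes (4.92%) did. The binomial calls rest on counting error alone.

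**Figure D3:**
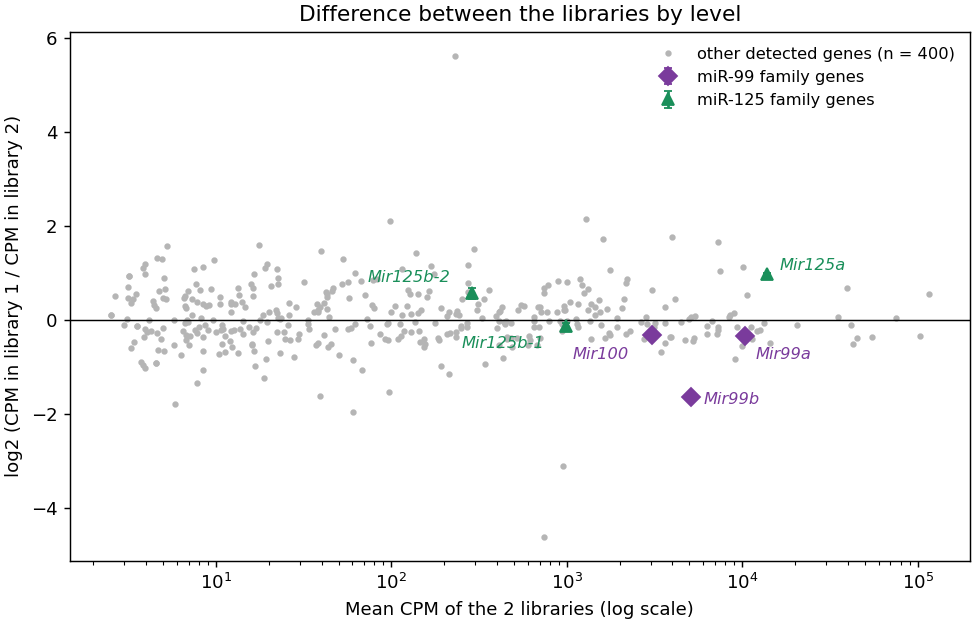
Log2 ratio of CPM in library 1 over library 2 against mean CPM (log scale) for the 406 detected genes, with the members as diamonds (miR-99) or triangles (miR-125) with exact 95% intervals, mostly narrower than the symbols. Mir99b lies at -1.64 and Mir125a at 0.99, while the other 4 members lie between -0.34 and 0.57.

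Ratios between genes within a library are free of any scaling, and 8 were compared between the libraries, with intervals not adjusted for their number. In the chromosome 17 cluster Mir125a had 7.42 reads for each read of Mir99b in library 1 and 1.199 in library 2. The ratio of Mir99b to Mir125a thus differed 6.18-fold (log2 odds ratio -2.63, exact 95% interval -2.67 to -2.59), although their hairpins lie 554 bases apart. The let-7 gene between them, Mirlet7e, was nearly level at 35978 and 34619 CPM (log2 ratio 0.06, interval 0.05 to 0.07). As shares of the cluster's reads, Mir99b held 4.38% in library 1 and 15.03% in library 2, Mirlet7e 63.2% and 67.0%, and Mir125a 32.5% and 18.02%.

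On chromosome 16, Mir99a had 26.5 reads for each read of Mir125b-2 in library 1 and 49.6 in library 2 (log2 odds ratio -0.91, interval -1.03 to -0.79). On chromosome 9, Mir100 had 2.88 reads for each of Mir125b-1 in library 1 and 3.30 in library 2 (log2 odds ratio -0.20, interval -0.27 to -0.13). In all 3 clusters the miR-99 gene was thus higher relative to the miR-125 gene in library 2, by sizes from 1.15-fold to 6.18-fold. On chromosomes 16 and 9 the miR-99 gene supplied most of the cluster's counted reads, 92.5% and 93.9% for Mir99a and 71.7% and 72.6% for Mir100. The let-7 genes there were low, with Mirlet7c-1 at 395 and 520 CPM and Mirlet7a-2 at 130 and 254 CPM. All 3 let-7 genes of the clusters passed the binomial test, Mirlet7e higher in library 1 and Mirlet7c-1 and Mirlet7a-2 higher in library 2. Mirlet7c-1, Mirlet7a-2 and the miR-125b genes share mature sequences with other loci, so these proportions describe uniquely placed reads only.

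**Figure D4:**
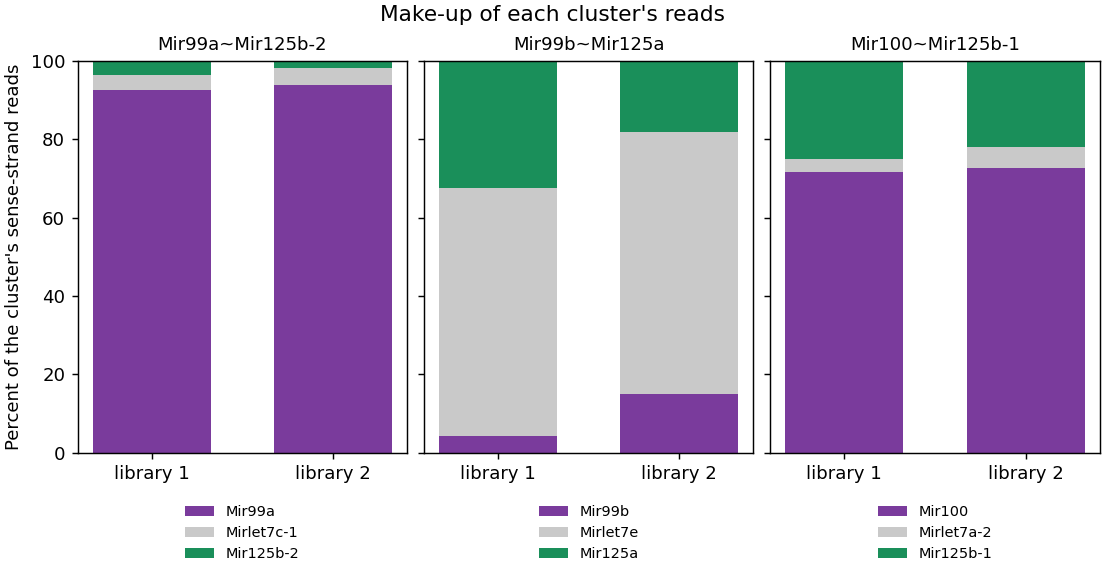
Percent of each cluster's sense-strand reads from the miR-99 gene (purple), the let-7 gene (grey) and the miR-125 gene (green), one bar per library. Between libraries 1 and 2 the share of Mir125a is 32.5% and 18.02% and that of Mir99b 4.38% and 15.03%, whereas Mir99a takes 92.5% and 93.9% of its cluster.

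Ratios between paralogs on different chromosomes differed in evenness. Mir99a had 3.35 reads for each read of Mir100 in library 1 and 3.38 in library 2, and the log2 odds ratio of -0.01 had an interval of -0.05 to 0.03. These are the genes whose 5′ arms differ by the single substitution A16U and which lie on chromosomes 16 and 9. Against Mir99b the same gene had 3.67 and 1.49 reads (log2 odds ratio 1.30, interval 1.26 to 1.34). Mir99b had 0.914 and 2.27 reads for each read of Mir100 (-1.31, -1.36 to -1.26). Within the family, Mir99a and Mir100 thus kept their proportion and Mir99b did not. Among the miR-125 genes, Mir125a had 19.5 and 8.99 reads for each of Mir125b-1 (1.12, 1.05 to 1.18). Mir125b-1 had 2.75 and 4.45 reads for each of Mir125b-2 (-0.70, -0.83 to -0.56). The sum of the uniquely placed reads of the miR-125b copies was 0.129% and 0.127% of the counted miRNA reads. The interval of this difference included 0 (log2 ratio 0.03, interval -0.03 to 0.08). Reads that matched both copies are left out of this sum and of the miR-125b ratios. The total level of miR-125b and its evenness between the libraries were therefore not measured.

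No other mature miRNA in the RefSeq table had the ACCCGUA seed of miR-99. The CCCUGAG seed of miR-125 was found in 3 more, printed here to show the shared seed.
miR-351-5p: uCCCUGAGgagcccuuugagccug
miR-6367: uCCCUGAGacccugguucagga
miR-6394: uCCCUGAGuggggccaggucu
Mir351 (chromosome X, 53053255 to 53053353, minus strand) had 204 CPM in library 1 (781 reads) and 264 CPM in library 2 (1200 reads), a mean of 234 ± 42.1 CPM (SD, n = 2). That placed it at rank 160 by the mean, below Mir125b-2 at rank 149, and above Mir125b-2 in library 2. The count of Mir125b-2 in this comparison is partial, as given above. Mir6367 and Mir6394 had 0 reads in both libraries, which allows up to 0.784 CPM in library 1 and 0.659 CPM in library 2. The sequence of miR-6367 shares its first 13 bases with miR-125b-5p.

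Strand made no difference to the counts of the members. None of the 6 had an antisense read, and all had the same count in the column that ignores strand. Mirlet7e, by contrast, had 0 reads in that column because Gm25927 is annotated opposite it.

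The tissue label was checked against miRNAs of other cell types. Of 12 neuronal genes, 9 were detected, and their summed level was 77660 CPM in library 1 and 52536 CPM in library 2. The Mir124a genes, well-known markers of neurons, lay between 0.220 and 3.95 CPM, and as copies with a shared mature sequence they carry the limit given for miR-125b. The Mir9, Mir128 and Mir138 genes and oligodendrocyte Mir219a-1 and Mir219a-2 are also numbered copies, so their counts may be partial too. All list sums here hold uniquely placed reads only. The 3 red blood cell genes summed to 134 and 1549 CPM, the oligodendrocyte genes to 4981 and 3468 CPM, and the 3 endothelial and smooth muscle genes to 14355 and 18575 CPM. The 4 microglia and leukocyte genes summed to 2128 and 1705 CPM and the choroid plexus genes to 713 and 717 CPM. Of the 5 muscle genes 4 had no read, and the liver gene Mir122 was at 72.4 and 78.6 CPM. By these sums the neuronal, oligodendrocyte and microglia and leukocyte lists were higher in library 1, as Mir125a was, and the red blood cell and vascular lists higher in library 2, as Mir99b was. The lists were not uniform: Mir132 (48515 and 30152 CPM) made up most of the neuronal difference. Neuronal Mir138-1 (4434 and 6046 CPM) and Mir138-2 (2381 and 3132 CPM) went the other way. Among detected neuronal genes, so did Mir9-3 (52.8 and 60.6 CPM) and Mir124a-1 (2.61 and 3.95 CPM). Likewise Mir451a (58.3 and 1419 CPM) made up most of the red blood cell difference, while Mir486 was higher in library 1 (51.0 and 34.7 CPM). In the vascular list Mir126a was higher in library 2 (8100 and 11825 CPM), Mir143 was closer (6001 and 6528 CPM), and Mir145a was higher in library 1 (254 and 221 CPM). Oligodendrocyte Mir219a-1 was higher in library 2 (6.01 and 7.03 CPM), against the sum of its list. The part of these cell type lists in the differences at Mir99b and Mir125a was not tested.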

How the data were processed

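The authors deposited whole-number counts of reads per miRNA gene, not normalized, for each library (mm10, GENCODE M21 per the labels and deposited descriptions). The aligner and the trimming of adapters were not given in the sources used here. Each table had 3 count columns, of which the sense-strand column was used, and 4 tally rows, left out of library sizes and tests. Unmapped reads made up 19.6% and 18.9% of libraries 1 and 2, and unique reads outside the sense strand of miRNA genes 5.03% and 4.94%.

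CPM were computed from the sense-strand totals. Genes with 10 or more reads in total were compared between the libraries by an exact binomial test, two-sided, with p-values adjusted by Benjamini and Hochberg's method at 0.05. Intervals are 95% (exact for ratios, Wilson for shares). edgeR 4.0.16 in R 4.3.3 gave TMM factors, a common dispersion and its exact test, and DESeq2 1.42.0 gave size factors. Other steps used Python 3.11.15 and scipy 1.17.1. Counts were also simulated for this library comparison, with counting error alone. In them 74.6% of 71 genes given a 2-fold change and 0.965% of 311 unchanged genes passed the binomial test. The changed genes were drawn from all genes with 10 or more reads in total, many with far fewer reads than any member. Their rate therefore does not carry over to the members. The simulation held no other spread between libraries, so the rate for unchanged genes does not carry over to the real libraries. Members and lists were chosen with earlier results of these data known. The genes named are the members, the let-7 genes of their clusters, miRNAs sharing a seed, each member's 3 nearest genes in log2 ratio among those with at least 1000 CPM, its neighbours in level and the cell type markers.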

Additional observations from a re-analysis of the deposited data

Results flagged for a closer look

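Reads mapped to several places, which are outside the counts analysed, made up 41.7% of library 1 (4743316 reads) and 41.1% of library 2 (5338530 reads). Reads of the exact miR-125b-5p sequence match both Mir125b-1 and Mir125b-2, and their number in this tally was not measured. With 2 libraries in 1 group, there was no test for outlying samples and no comparison of groups.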

How the results depend on the processing

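The directions of all 6 log2 ratios were the same under the column that ignores strand, all reads as the denominator, TMM scaling, DESeq2 size factors and both other count minimums, and the 6 binomial calls were kept. Under edgeR's exact test, whose dispersion came from these same libraries, 0 members passed in either direction, with 1 at an unadjusted p under 0.05. With all reads as the denominator, the share was 0.641% for miR-99 and 0.519% for miR-125, since most reads lie outside the counted genes. With 2 libraries, leaving one out gives the other's value, always within 1 SD of the mean, so it is no sign of stability. Of the members Mir99b moved most as a fold, from a mean of 5132 CPM to 7770 CPM without replicate 1 and 2493 CPM without replicate 2. The ratio of Mir99b to Mir125a (mean log2 -1.58) was -0.26 and -2.89 in the same order. The miR-99 share ran from 1.44 to 2.28% and the miR-125 share from 1.06 to 1.98%. With stretches of 18 bases, chosen after seeing the data, 7 stretches of each miR-125b hairpin and 2 of Mir125a were found at other loci, and none of the miR-99 hairpins. The planned count of matches over the genome was not run because no genome sequence was used here. No paired analysis was possible because there was only 1 group.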
